A study of Homo sapiens with 18 samples.

Results

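Keratins and keratin-associated proteins are the structural genes of epithelial and hair filaments, and their transcripts were followed here in cultures of MDA-MB-231, a permanent cell line from a triple-negative breast tumour. Every protein-coding gene whose GENCODE symbol begins with KRT or KRTAP followed by a digit was taken, which gave 149 of the 62703 annotated genes, 55 keratins and 94 keratin-associated proteins. The symbols alone decide membership, but the family itself was chosen by a measured value, since KRTAP2-3 had the largest rise with the hairpin against EZH2. The contrast of that hairpin with its control is therefore described below without a test.

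Keratins are intermediate filament proteins that work in pairs, with 1 acidic type I chain joined to 1 basic type II chain. Simple epithelia, including the luminal cells of the breast, use KRT8 and KRT7 (type II) with KRT18 and KRT19 (type I). Basal and stratified epithelia use other pairs, and hair is built from hair keratins crosslinked in a matrix of cysteine-rich keratin-associated proteins. Type I keratins lie together on chromosome 17 with many keratin-associated protein genes between them, and type II keratins lie on chromosome 12 together with KRT18.

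Poly(A) RNA was sequenced from 10 distinct libraries in 5 groups of 2, since 8 of the 18 sample records repeat another record value for value. In the knockdown experiment, cells received a lentivirus carrying a control shRNA, a short hairpin RNA against EZH2 (shEZH2) or one against E2F1 (shE2F1), with 24 h of transduction and 72 h of puromycin selection. The paper lists 1 hairpin sequence per target, so effects of a hairpin on other genes cannot be told apart from loss of its target. In the drug experiment, cells received DMSO or 1 uM GSK126, which blocks the enzymatic activity of EZH2, for 72 h. EZH2 is the histone methyltransferase of the Polycomb system, whose mark on histone H3 keeps genes silent, and E2F1 activates genes of cell division. All groups are pools of cultured cells of 1 line, and the knockdown groups hold only cells that survived selection. The labels do not say whether replicates were separate cultures, so that p-values measure the spread between these libraries.

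The libraries held 13198932 to 20055550 expected counts. A count of 0 in a library allowed a level of up to 0.15 to 0.227 CPM (counts scaled by library size), by counting error only. EZH2 stood at 155 and 183 CPM with control shRNA and at 53.1 and 44.8 CPM with shEZH2. E2F1 stood at 145 and 140 CPM with control shRNA and at 26.2 and 22.7 CPM with shE2F1, and at 62.95 and 32.3 CPM with shEZH2. With shEZH2 the change of E2F1 from control shRNA was −1.59 ± 0.23 (adjusted p = 0.000172 in edgeR). EZH2 stood at 122 and 138 CPM with shE2F1, a change of −0.37 ± 0.12 from control shRNA (adjusted p = 0.0227 in edgeR). Markers of the line were present, with vimentin (VIM) at 1185 to 2860 TPM (a level scaled to gene length and library). AXL was at 668 and 683 TPM with control shRNA, 256 and 171 TPM with shEZH2 and 170 and 169 TPM with shE2F1. Of the genes expected to be low, the hormone receptors ESR1 and PGR reached at most 0.17 and 0 TPM, and ESRP1 0.2 TPM. EPCAM ran from 12.4 to 37.7 TPM and ESRP2 from 2.71 to 9.21 TPM. CDH1 was at 0.26 and 0.42 TPM with control shRNA, 2.76 and 1.39 TPM with shEZH2 and 4.5 and 2.25 TPM with shE2F1. Of 4 keratinocyte markers, KRT5 was at 0 in every library, DSG3 reached 0.02 TPM, TP63 0.5 TPM and KRT14 0.77 TPM, and their summed level ran from 0.14 to 1.06 TPM.

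Most of the family was silent at this depth. No read was assigned to 97 of the 149 members in any library, and 35 more had counts but stayed under 1 TPM, with at most 9.85 expected counts in a library. At 1 TPM or more in at least 1 library were 17 members, 15 keratins and 2 keratin-associated proteins, and 9 members passed that level in all 10 libraries. Per library, 11 to 14 members passed it. Just inside the threshold were KRT39 at 1.00 TPM and KRTAP2-4 at 1.14 TPM, and just outside it were KRTAP3-2 at 0.99 TPM and KRT78 at 0.82 TPM. No member of the high glycine-tyrosine (22 genes) or ultrahigh-sulfur (32 genes) keratin-associated proteins reached 1 TPM. The chromosome 17 cluster held 62 members, of which 31 had a count and 11 passed 1 TPM, and the chromosome 12 cluster held 27 members, of which 12 had a count and 6 passed 1 TPM. The 4 clusters of keratin-associated proteins on chromosomes 11 and 21 held no member at that level.

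**Figure D1:**
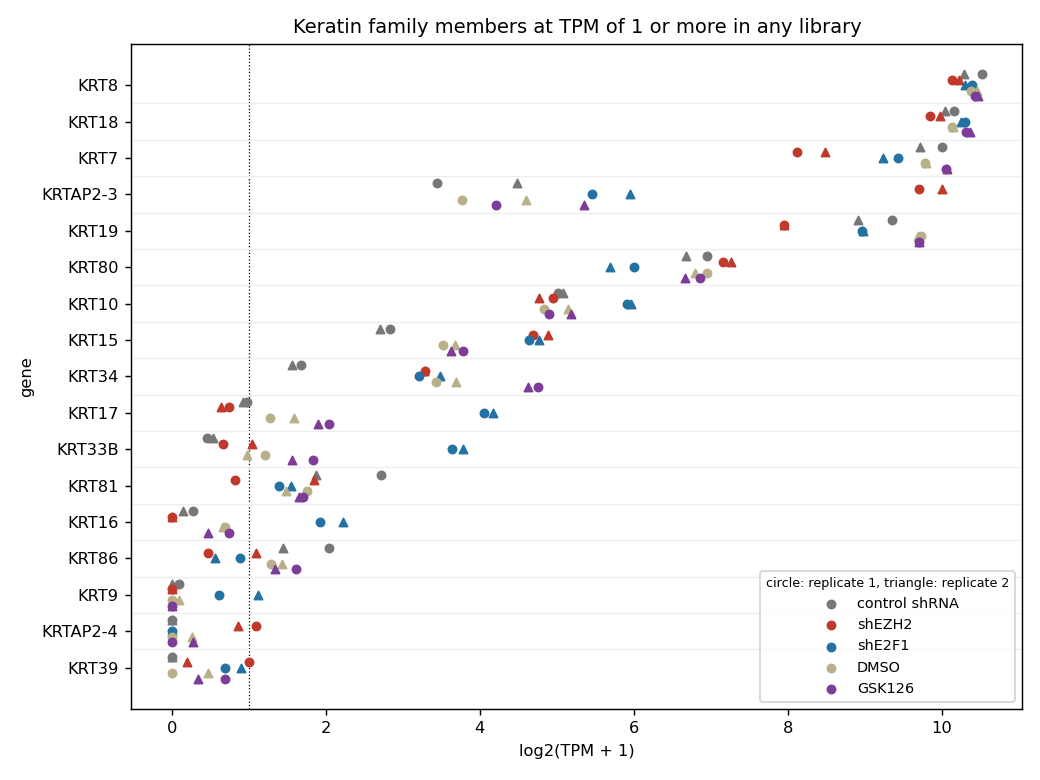
Transcript level of the 17 members that reached 1 TPM in any library, as log2(TPM + 1) on the horizontal axis, with 1 row per gene and 10 points per row (circles replicate 1, triangles replicate 2, colours the 5 groups). The dotted line marks 1 TPM. KRT8 and KRT18 sit together at the right in all groups, while KRTAP2-3 moves from 9.92 and 21.4 TPM with control shRNA to 837 and 1030 TPM with shEZH2.

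The promoters of KRTAP2-3, KRT34 and KRT33B are shown because these members, which lie on the minus strand of the chromosome 17 cluster, had large differences between groups. The 250 bases before the RefSeq start of each gene (GRCh38) are printed 5′ to 3′ on the gene's own strand, with the letters TATAAA, the core of a TATA box, in capitals. The KRTAP2-3 window is chr17:41060115-41060364, the KRT34 window is chr17:41382307-41382556 and the KRT33B window is chr17:41369814-41370063.
KRTAP2-3: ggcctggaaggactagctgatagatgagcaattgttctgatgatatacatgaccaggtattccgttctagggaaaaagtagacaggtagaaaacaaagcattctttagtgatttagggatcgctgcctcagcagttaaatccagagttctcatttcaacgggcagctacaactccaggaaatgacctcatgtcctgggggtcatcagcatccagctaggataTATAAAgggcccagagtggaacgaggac
KRT34: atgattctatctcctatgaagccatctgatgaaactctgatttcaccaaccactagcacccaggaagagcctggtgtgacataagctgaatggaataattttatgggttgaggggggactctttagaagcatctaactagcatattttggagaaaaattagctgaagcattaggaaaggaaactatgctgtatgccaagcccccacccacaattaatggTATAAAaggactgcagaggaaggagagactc
KRT33B: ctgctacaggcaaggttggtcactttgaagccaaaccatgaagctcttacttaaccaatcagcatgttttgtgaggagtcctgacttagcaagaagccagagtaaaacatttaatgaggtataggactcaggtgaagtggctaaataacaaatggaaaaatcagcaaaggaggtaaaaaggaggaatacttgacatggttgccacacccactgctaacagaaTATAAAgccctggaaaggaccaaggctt
The match begins 28 bases before the start in KRTAP2-3 and KRT33B and 31 bases before it in KRT34. In windows of 300 bases around the start, searched on both strands, TATAAA occurred in 73.7% of the 114 members with a RefSeq promoter and in 12% of all 27305 promoters. The median number of CpG dinucleotides was 2 in these members and 14 over all promoters. Of the members at 1 TPM or more, only 8 had a promoter entry, and 75% of those held TATAAA. KRT17 and KRT16 had no entry and could not be shown. A match of letters is a description of the sequence and was not tested for function.

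The simple epithelial keratins made up nearly the whole family transcript. KRT8 was the most abundant member in the 10 libraries, from 1126 to 1470 TPM, and ranked between 92 and 131 among all genes of a library. KRT18, its usual type I partner, lay between 922 and 1319 TPM. KRT7 and KRT19 lay between 277 and 1070 TPM and between 246 and 847 TPM. Together the 4 genes gave 95.5% to 95.9% of the family TPM in the control shRNA libraries, 95.5% to 95.6% in the DMSO and GSK126 libraries, 93.5% and 94.2% with shE2F1 and 69.1% and 71.0% with shEZH2. In the shEZH2 libraries, the keratin-associated proteins, which there were nearly all KRTAP2-3, gave 23.2% and 25.4% of the family TPM, against 0.225% and 0.567% with control shRNA.

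The summed TPM of type I over that of type II keratins was 0.70 and 0.72 with control shRNA, 0.80 and 0.77 with shEZH2, 0.89 and 0.97 with shE2F1, 0.86 and 0.84 with DMSO, and 0.85 and 0.86 with GSK126. The ratio of KRT8 to KRT18 ran from 1.04 to 1.29 over the 10 libraries. The usual type II partners of some minor type I members were nearly without reads: KRT5 had none, and KRT6A had at most 3 counts in a library, while KRT15, KRT16 and KRT17 passed 1 TPM.

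In the comparison of E2F1 knockdown with control shRNA, which asks what the E2F1 hairpin does, 9 of the 15 members tested passed the threshold (adjusted p under 0.01 in the edgeR quasi-likelihood test and more than 2-fold). Over all 15373 genes tested, 11.6% passed. KRT9, KRT16 and KRT33B passed the filter on low counts only through the shE2F1 libraries, so they were bound to be higher there and are given below by their values without a p. Of the other 12 members, 4 rose and 2 fell, where 5.6% and 5.96% of all genes were called higher and lower, and their median log2 change was −0.14 beside 0 over all genes. By position, these were 4 rises and no fall among 6 members of chromosome 17, and no rise and 2 falls among 6 members of chromosome 12. The control libraries of this comparison are the same as those of shEZH2, which served in choosing KRTAP2-3. That gene is counted among the 4 rises, and its call is not independent of the choice. The summed level of the 4 keratinocyte markers was 0.43 and 0.45 TPM with control shRNA and 0.76 and 1.06 TPM with shE2F1. Of these, KRT14, itself a member of the family, was at 0.21 and 0.22 TPM against 0.55 and 0.77 TPM. TP63 was at 0.22 and 0.23 TPM against 0.21 and 0.29 TPM. The sum of 3 fibroblast markers was 0.48 and 0.12 TPM against 6.11 and 2.08 TPM. Nearly all of it was LUM, at 0.48 and 0.12 TPM against 6.05 and 2.07 TPM, and DCN was at 0 in every library. CD68, a lysosomal protein used as a macrophage marker, stood at 80.5 and 78.8 TPM against 146 and 158 TPM, while the leukocyte markers PTPRC and CD3E reached at most 0.46 and 0 TPM in any library. The part of these shifts in the keratin values was not tested.

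KRT33B, a type I hair keratin, stood at 0.38 and 0.49 CPM with control shRNA and at 10.7 and 11.5 CPM with shE2F1. Both shE2F1 libraries were far above both controls, which held 7 and 8 counts. The difference was 4.67 ± 0.33 on the log2 scale (SE, n = 2 libraries per group, as for all changes below). It shares 27.5% of its 50-base stretches with other genes, mostly with its neighbour KRT33A, which had no count in any knockdown library.

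KRT34, another type I hair keratin and its neighbour in the cluster, stood at 2.26 and 2.12 CPM with control shRNA and at 7.78 and 9.23 CPM with shE2F1. The libraries did not overlap, and KRT34 rose by 1.95 ± 0.21 on the log2 scale (adjusted p = 4.55e-05 in edgeR). KRT39, also a type I hair keratin, had no count in the control libraries and 5 and 6 counts with shE2F1, and was not tested.

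KRT17 and KRT16 are induced in keratinocytes by wounding and activation, where they pair with KRT6. KRT17 stood at 0.91 and 0.73 CPM with control shRNA and at 13.5 and 14.2 CPM with shE2F1, and rose by 4.06 ± 0.27 on the log2 scale (adjusted p = 2.07e-06 in edgeR). KRT16 had 4 and 2 counts with control shRNA and 48.9 and 51.1 counts with shE2F1, a ratio of 15.0 after scaling to library size with a 95% counting interval from 6.63 to 41.7. The interval leaves out the spread between libraries and is not a test, since the filter fixed the direction. In both genes the shE2F1 libraries stood above all the others. Of their stretches of 50 bases, 9.56% for KRT17 and 16.5% for KRT16 occur elsewhere in the annotation.

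KRT15, a type I keratin of the basal layer, stood at 6.13 and 5.70 CPM with control shRNA and at 18.1 and 18.5 CPM with shE2F1. The libraries did not overlap, and KRT15 rose by 1.63 ± 0.17 on the log2 scale (adjusted p = 3.89e-05 in edgeR). KRT9, the type I keratin of palm and sole epidermis, had 2 and 0 counts with control shRNA and 15 and 22 counts with shE2F1. The ratio for KRT9 was 16.6 with a 95% counting interval from 4.28 to 142, which again leaves out the spread between libraries and is not a test. KRT10, the type I keratin of differentiating epidermis, stood at 43.8 and 48.2 CPM with control shRNA and at 75.6 and 74.9 CPM with shE2F1. That is a change of 0.71 ± 0.10 (adjusted p = 0.000246 in edgeR), under the 2-fold required.

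KRTAP2-3, a high-sulfur keratin-associated protein, stood at 4.89 and 11.3 CPM with control shRNA and at 19.6 and 26.7 CPM with shE2F1. It was higher by 1.53 ± 0.29 on the log2 scale, given without a test because the control libraries also served in choosing this gene. The spread between the controls weighed on this value, which was 1.02 without control shRNA replicate 1 and 2.24 without control shRNA replicate 2. Without shE2F1 replicate 2 the value was 1.29. With all 10 libraries in the fit and in DESeq2 the criteria for a call were not met. Replicate 2 exceeded replicate 1 for this gene in all 5 groups, by 1.27 to 2.57 times.

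Both members that fell are type II keratins of chromosome 12. KRT80, found in differentiating epithelia, stood at 323 and 278 CPM with control shRNA and at 150 and 116 CPM with shE2F1. The libraries did not overlap, and KRT80 fell by 1.17 on the log2 scale (SE 0.13, adjusted p = 4.40e-05 in edgeR). KRT86, a hair keratin, stood at 4.20 and 2.49 CPM with control shRNA and at 1.06 and 0.54 CPM with shE2F1. It fell by 2.04 on the log2 scale (SE 0.50, adjusted p = 0.00702 in edgeR). This call was lost without control shRNA replicate 1 (−1.61), without shE2F1 replicate 1 (−2.61), without shE2F1 replicate 2 (−1.65), in DESeq2 (−2.05, adjusted p = 0.0107), with the effective length offset (−2.06) and with the GC content and length offset plus the block (−2.03). KRT81, the next hair keratin in the cluster, had a change of −1.40 ± 0.47 (adjusted p = 0.0312 in edgeR) and was −0.81 without control shRNA replicate 1. KRT81 and KRT86 lie on opposite strands of overlapping loci and share 44.6% and 37% of their stretches with other genes, chiefly with each other. RSEM's own posterior SD was at most 2.25% of the count for KRT81 and 6.07% for KRT86, which leaves out the spread between libraries. Summed with KRT83, they were at −1.63 (adjusted p = 0.00992 in edgeR), which met the criteria.

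The 4 abundant keratins differed less. KRT7 stood at 936 and 813 CPM with control shRNA and at 581 and 479 CPM with shE2F1, a change of −0.72 ± 0.15 that passed the p threshold but not 2-fold (adjusted p = 0.0029 in edgeR). KRT19 changed by −0.38 ± 0.11 and KRT8 by −0.25 ± 0.10 (adjusted p = 0.0181 and 0.0604 in edgeR). KRT18 had a change of −0.02 with a 95% interval from −0.23 to 0.18. In bulk RNA, a change in the share of cells that express a keratin and a change in the RNA per cell cannot be told apart.

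**Figure D2:**
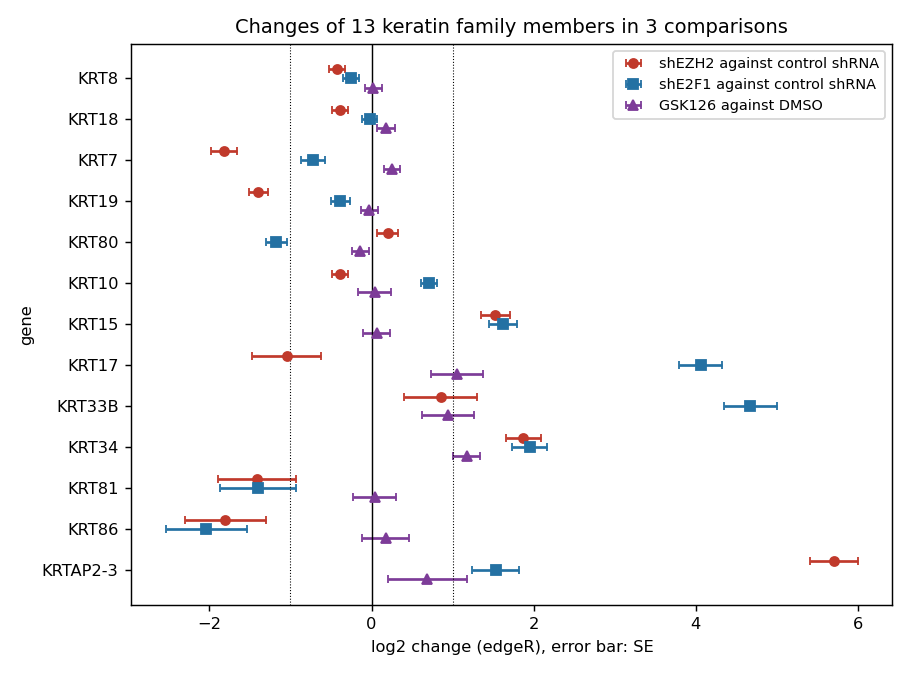
Log2 change (horizontal axis, edgeR estimate with SE) of 13 members in 3 comparisons, shEZH2 against control shRNA (circles), shE2F1 against control shRNA (squares) and GSK126 against DMSO (triangles), with dotted lines at 2-fold. KRT33B and KRT17 stand apart with shE2F1 (4.67 and 4.06) and KRTAP2-3 with shEZH2 (5.71), and GSK126 values lie between −0.14 and 1.17. KRT9 and KRT16 are left out because libraries at 0 counts give no fold.

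GSK126 was compared with DMSO to ask what inhibition of the enzyme does while the protein remains. None of the 14 members tested in edgeR passed the threshold, and 0% of the 14632 genes tested did. At an unadjusted p under 0.05 stood 4 members, KRT34, KRT17, KRT33B and KRT7, and 577 genes in all (3.94%). DESeq2 called 10 genes, and KRT34 was among them. An edgeR fit with a term for the replicate number (the replicate block) called 68 genes (0.465%), KRT34 among them. Replicate differences correlated at r = 0.663 between DMSO and GSK126, but the labels name no pairing. In 5 of the 14 members both GSK126 libraries lay above both DMSO libraries and in 1 they lay below, where 15.3% and 13.1% of all genes did so.

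KRT34 stood at 9.36 and 12.3 CPM with DMSO and at 24.5 and 24.4 CPM with GSK126. The GSK126 libraries were close to each other and well above both DMSO libraries. The change was 1.17 ± 0.17 (unadjusted p = 0.000353, adjusted p = 0.646 in edgeR), and its adjusted p was 0.00399 in DESeq2. With the replicate block KRT34 was at 1.18 (adjusted p = 7.88e-11 in edgeR). Left out in turn, GSK126 replicate 1, GSK126 replicate 2 and DMSO replicate 2 gave calls for KRT34 in edgeR at 1.17, 1.18 and 1.39, and DMSO replicate 1 gave none at 0.98. Its level with DMSO was itself above both control shRNA libraries, at 2.26 and 2.12 CPM. It was also above the shEZH2 and shE2F1 libraries, shE2F1 replicate 2 only just, though all of these come from the other experiment.

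KRT17 stood at 1.25 and 1.00 CPM with DMSO and at 2.14 and 2.57 CPM with GSK126, a change of 1.06 ± 0.32 (unadjusted p = 0.0146, adjusted p = 1 in edgeR). KRT33B stood at 1.25 and 1.00 CPM with DMSO and at 2.37 and 1.98 CPM with GSK126, a change of 0.95 ± 0.32 (unadjusted p = 0.0246, adjusted p = 1 in edgeR). These values rest on 18 to 44 counts per library. With the replicate block, KRT17 was at 1.05 and KRT33B at 0.95 (adjusted p = 0.0299 and 0.0575 in edgeR), and neither was called. KRTAP2-3 stood at 5.71 and 11.5 CPM with DMSO and at 7.75 and 19.9 CPM with GSK126, so that the groups overlapped, and its change of 0.69 had a 95% interval from −0.50 to 1.87. The value turned on single libraries. It was 1.21 without GSK126 replicate 1, −0.14 without GSK126 replicate 2, 0.26 without DMSO replicate 1 and 1.28 without DMSO replicate 2. Replicate 2 was above replicate 1 in both groups, and GSK126 was above DMSO within each replicate number. With the replicate block the change was 0.66, under 2-fold (adjusted p = 0.000281 in edgeR).

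The remaining members differed little or within wide intervals. KRT7 changed by 0.25 ± 0.10 (unadjusted p = 0.0379, adjusted p = 1 in edgeR). With the replicate block, KRT7, KRT18 and KRT80 were at 0.25, 0.18 and −0.14, all far under 2-fold. Their adjusted p there was 1.08e-09, 7.57e-07 and 0.00218 in edgeR. KRT8 had a 95% interval from −0.24 to 0.29, KRT18 from −0.08 to 0.45, KRT19 from −0.27 to 0.22, KRT80 from −0.38 to 0.11, KRT10 from −0.45 to 0.52 and KRT15 from −0.34 to 0.47 on the log2 scale. The intervals of the low members KRT16, KRT81 and KRT86 were wider, from −1.37 to 0.95, −0.59 to 0.67 and −0.52 to 0.87.

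**Figure D3:**
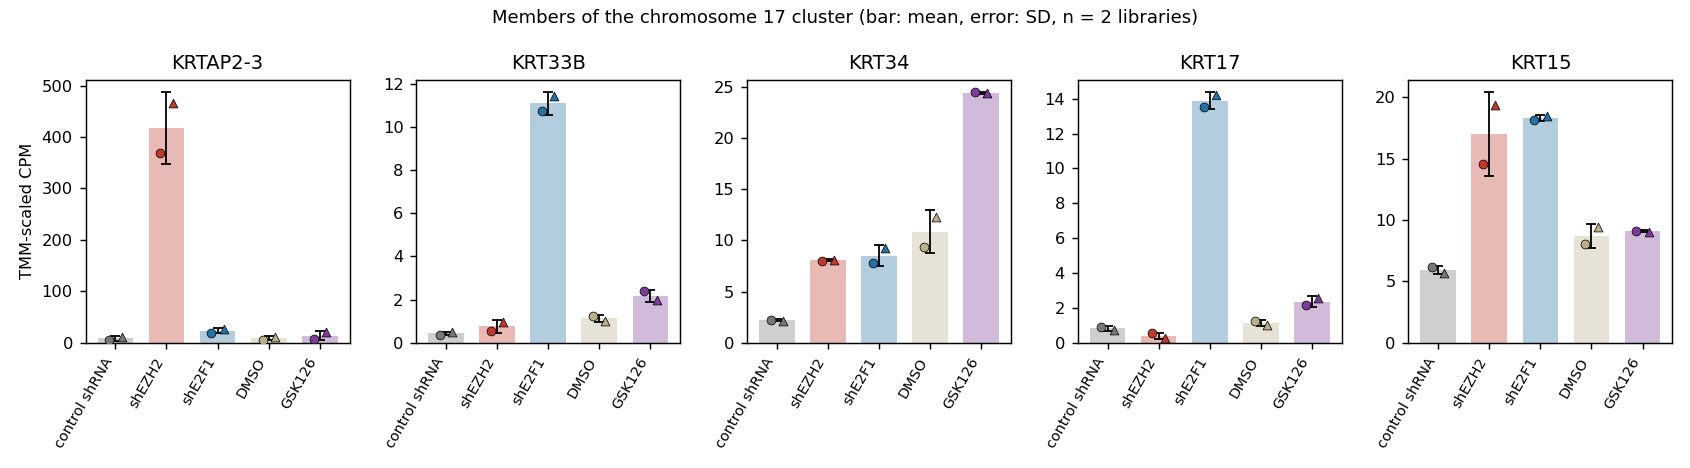
TMM-scaled CPM (vertical axes from 0, scaled per panel) of KRTAP2-3, KRT33B, KRT34, KRT17 and KRT15 in the 5 groups, with a bar for the mean, an error bar for the SD and a point per library (n = 2). KRTAP2-3 is high only with shEZH2 among these groups (369 and 467 CPM), KRT33B and KRT17 with shE2F1, KRT15 with both hairpins, and KRT34 is highest with GSK126 (24.5 and 24.4 CPM).

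With shEZH2, the contrast from which the family was chosen, 5 of 15 members met the same criteria against control shRNA, beside 18.2% of all genes tested. Of the 5, 3 were higher and 2 lower, beside 7.52% and 10.7% of all genes. These values are a description. KRTAP2-3 stood at 369 and 467 CPM with shEZH2 against 4.89 and 11.3 CPM with control shRNA, 52.3-fold higher (5.71 ± 0.29 on the log2 scale), and moved from rank 8568 and 5738 among the genes of a library to rank 156 and 115. KRT34 was at 7.97 and 8.13 CPM (1.87 ± 0.22) and KRT15 at 14.6 and 19.4 CPM (1.53 ± 0.18), both above their controls. KRT7 was at 207 and 289 CPM against 936 and 813 CPM (−1.82 ± 0.16), and KRT19 at 186 and 190 CPM against 557 and 435 CPM (−1.40 ± 0.12). An offset for GC content and length moved KRT7 to −1.32 and KRT19 to −0.91, where KRT19 no longer met the 2-fold criterion. KRTAP2-3 lay between 5.2 and 6.42 over all alternatives.

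Other members with shEZH2 had smaller or less certain differences. KRT8 (−0.42 ± 0.10), KRT18 (−0.39 ± 0.09) and KRT10 (−0.39 ± 0.10) lay below their controls, and KRT80 at 0.20 ± 0.13 above. The same offset moved KRT8 to −0.15 and KRT18 to −0.11. KRT16 had 0 counts in both shEZH2 libraries against 4 and 2 in the controls, and KRT9 had 0 in both against 2 and 0, so that no fold is given. KRT33B (0.85 ± 0.45), KRT17 (−1.05 ± 0.43), KRT81 (−1.41 ± 0.48) and KRT86 (−1.80 ± 0.50) rested on few counts, 5 to 50.7 per shEZH2 library. Without shEZH2 replicate 2 their values were 0.32, −0.62, −2.62 and −2.85, and without shEZH2 replicate 1 they were 1.18, −1.49, −0.83 and −1.27. KRT81 was also at −0.82 without control shRNA replicate 1. The sum of the 3 fibroblast markers was 2.99 and 3.90 TPM with shEZH2 against 0.48 and 0.12 TPM, nearly all of it LUM (2.83 and 3.62 TPM with shEZH2). CD68 stood at 38 and 30.8 TPM against 80.5 and 78.8 TPM. The part of these shifts was not tested.

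**Figure D4:**
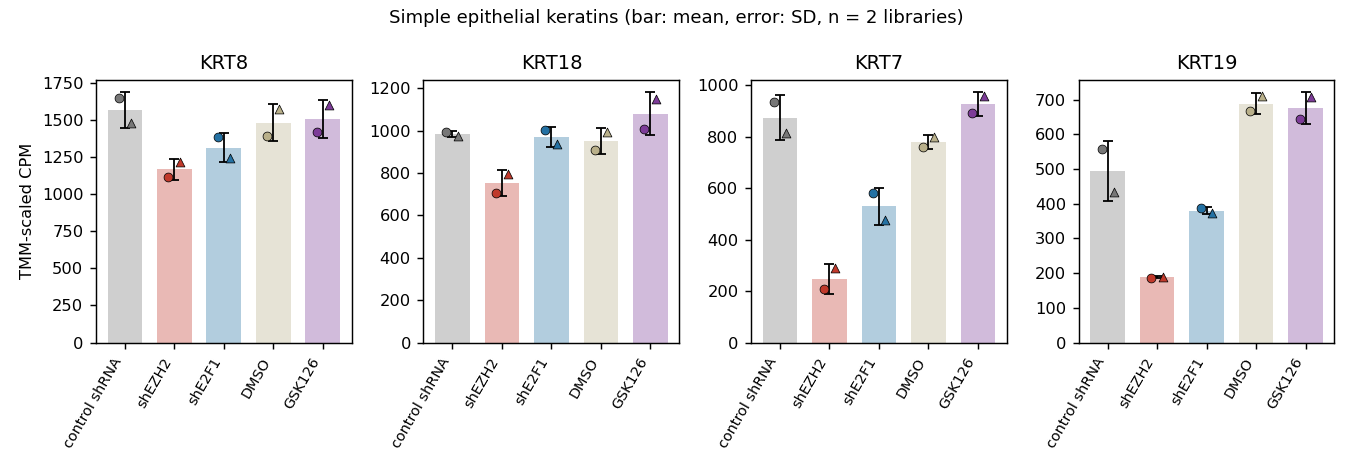
TMM-scaled CPM (vertical axes from 0, scaled per panel) of KRT8, KRT18, KRT7 and KRT19 in the 5 groups, with a bar for the mean, an error bar for the SD and a point per library (n = 2). KRT7 and KRT19 are lowest with shEZH2 (207 and 289 CPM, 186 and 190 CPM), while KRT8 and KRT18 stay between 708 and 1649 CPM.

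KRTAP2-3 is a gene of 1 exon at chr17:41059240-41060114 on the minus strand (GRCh38). Within 100 kb of it lie 21 other protein-coding genes, all of them members of the family. Their counts summed over the 10 libraries were at most 26 (KRT39), so the level of KRTAP2-3 was not shared by its neighbours. KRTAP2-2, 4.0 kb away, had no count in any library. KRTAP2-4, 5.0 kb away, had 5.6 and 5.36 expected counts with shEZH2 and at most 1.52 elsewhere, and shares 45.6% of its 50-base stretches with KRTAP2-3, which in turn shares 39.7% of its own with other genes. RSEM's own posterior SD for KRTAP2-4 was 30.8% to 230% of its count, and for KRTAP2-3 at most 0.848%. KRTAP3-2 had 4 and 6 counts with shEZH2 and none in the other 8 libraries, and KRTAP4-12 had 9 and 4 counts with shE2F1 and none in the others. Neither could be tested.

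**Figure D5:**
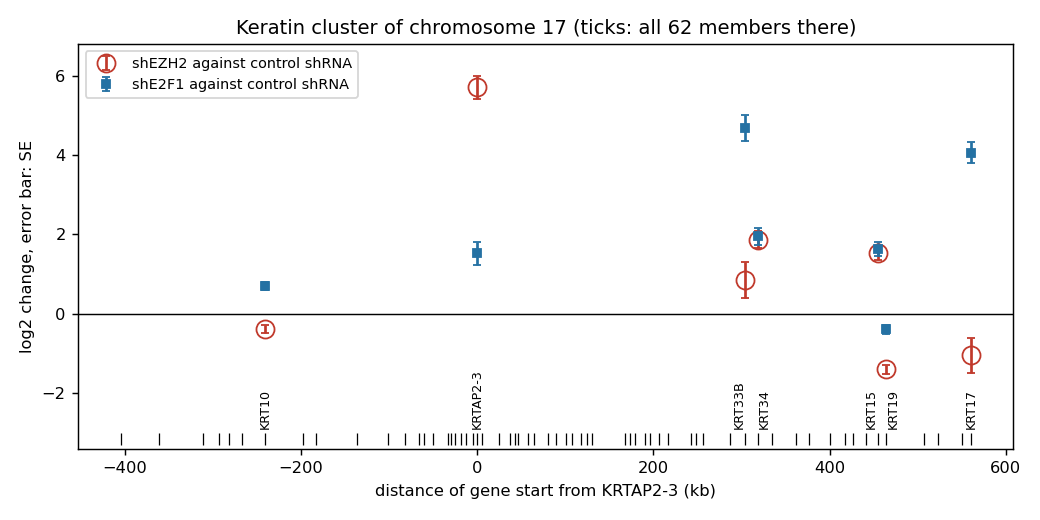
Log2 change with SE (vertical axis) of 7 tested members of the chromosome 17 cluster against the distance of the gene's start from that of KRTAP2-3 in kb (horizontal axis), with open circles for shEZH2 and filled squares for shE2F1. The ticks mark all 62 members of the cluster. KRT15 and KRT19 lie side by side and differ in sign in both knockdowns (KRT15 at 1.53 and 1.63, KRT19 at −1.40 and −0.38), and KRT9 and KRT16 are left out because of libraries at 0 counts.

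E2F1 transcripts were below control shRNA in both knockdowns, at 62.95 and 32.3 CPM with shEZH2 and 26.2 and 22.7 CPM with shE2F1. The direct comparison of shEZH2 with shE2F1 tested whether the knockdowns differ. It called 9 of 15 members, 2 higher and 7 lower with shEZH2, where 23.3% of all genes were called, 10.4% higher and 12.9% lower. Of the 9, KRTAP2-3 belongs to the contrast that chose the family, and KRT9, KRT16 and KRT33B passed the filter only through shE2F1. Among the other 11 members, 1 was called higher and 4 lower with shEZH2. KRTAP2-3, given without a test because the shEZH2 libraries chose it, was 4.18 ± 0.26 higher with shEZH2 on the log2 scale. KRT80 was higher by 1.37 ± 0.13 (adjusted p = 7.20e-06 in edgeR). KRT17 was lower with shEZH2, at −5.11 ± 0.31 (adjusted p = 4.65e-07 in edgeR). KRT33B was at −3.82 ± 0.30, given without a test. KRT16 and KRT9 had no count with shEZH2 and were at least 10.4-fold and 3.18-fold lower than with shE2F1, against a floor of 3 counts per library.

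KRT10, KRT7 and KRT19 were lower with shEZH2 by amounts close to 2-fold, at −1.10 ± 0.10, −1.10 ± 0.15 and −1.02 ± 0.11 (adjusted p = 7.14e-06, 0.00012 and 2.56e-05 in edgeR). With the GC content and length offset, KRT10 was at −0.93, just under 2-fold, while KRT7 and KRT19 shrank to −0.53 and −0.44. The calls of KRT7 and KRT19 were also lost with the effective length offset (both −0.99), without shEZH2 replicate 1 (−0.87 and −0.99) and without shE2F1 replicate 1 (−0.95 and −0.99). For KRT34 and KRT15, which were higher than control in both knockdowns, the difference between the hairpins had 95% intervals from −0.50 to 0.34 and from −0.45 to 0.26 on the log2 scale.

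The effect of the EZH2 hairpin minus that of GSK126 contains the contrast that chose the family and is again a description. It met the criteria in 5 members, beside 13.8% of all genes, 5.13% higher and 8.67% lower. KRTAP2-3 (5.03 ± 0.61) and KRT15 (1.48 ± 0.25) had the higher values with the hairpin. KRT7 (−2.06 ± 0.22), KRT17 (−2.09 ± 0.51) and KRT19 (−1.36 ± 0.17) had the lower ones. Over the alternatives KRT17 lay between −2.54 and −1.55 and KRT19 between −1.53 and −0.88, which reaches under 2-fold. Only 3 members met the criteria with the GC content and length offset. For KRT34, which was above its controls in both experiments, the difference was 0.71 ± 0.27.

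Genes linked to keratins, called partner genes below, were taken from 5 lists of 100 genes in all. The lists were desmosome components, plakins and hemidesmosome linkers, other intermediate filaments, cornified envelope genes and regulators of keratin genes. The other intermediate filaments include genes of separate filaments, such as the lamins LMNB1 and LMNB2. With shE2F1, 5 of the 53 tested rose and 8 fell (9.43% and 15.1%, beside 5.6% and 5.96% of all genes), with a median log2 change of 0.12 beside 0 over all genes. TRIM29, a TRIM-family protein of basal epithelial cells, rose by 3.79 ± 0.27 (35.6 and 15.7 CPM with control shRNA, 357 and 357 CPM with shE2F1; adjusted p = 3.05e-06 in edgeR). TGM1, the transglutaminase that crosslinks the cornified envelope, rose by 2.57 ± 0.30, and the regulators TFAP2C, JUNB and KLF4 rose by 1.78, 1.25 and 1.20. VDR, the vitamin D receptor, had a change of −2.09 ± 0.22 and FOSL1, a subunit of AP-1, one of −1.20 ± 0.13. The filament linkers PLEC and ITGB4 fell (−1.18 and −1.20), as did LMNB1, LMNB2 and SYNC of the other intermediate filaments (−1.26, −1.70 and −1.35) and DMKN of the cornified envelope (−1.01). None of the 8 desmosome genes tested was called.

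With GSK126, none of 50 partner genes passed the threshold in edgeR without the replicate block. FLG alone passed in DESeq2, and FLG alone in edgeR with the block (1.33, adjusted p = 1.89e-15). This gene, which encodes filaggrin, the protein that bundles keratin filaments in epidermis, stood at 23.3 and 14.0 CPM with DMSO and at 53.9 and 39.5 CPM with GSK126 (1.32 ± 0.27, adjusted p = 0.799 in edgeR, 0.000934 in DESeq2). With shEZH2, again as a description, 6 partner genes met the criteria above control and 9 below it (11.3% and 17%, beside 7.52% and 10.7% of all genes). Of the genes below control, 5 are from the list of other intermediate filaments. The median log2 difference was −0.29 over the 53 tested and −0.02 over all genes. VIM, the filament protein of mesenchymal cells, was at 1431 and 1282 CPM against 3266 and 3560 CPM (−1.33 ± 0.10). GFAP and SYNC, also intermediate filament genes, were at −2.06 and −2.08. GRHL1, a regulator of epidermal genes, was at 12 and 17.5 CPM against 0.75 and 1.21 CPM (3.92 ± 0.32). The regulators TRPS1 and JUNB were at 1.73 and 1.26, and FOXQ1 and TFAP2C at −1.33 and −1.25. EPPK1, which binds keratin filaments, was at 0.61 and 0.40 CPM against 3.55 and 3.15 CPM (−2.74 ± 0.36). TRIM29 was at −1.18, while the hemidesmosome genes COL17A1 and ITGA6 were at 1.60 and 1.21.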

How the data were processed

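Strand-specific poly(A) RNA libraries were made from MDA-MB-231 cells. Per the labels, reads were processed by the authors with STAR and RSEM (the submitters' processing notes list versions 2.7.2b and 1.3.1) on GRCh38 with Ensembl 108. The deposited files hold RSEM expected counts, which divide shared reads between genes, TPM, which the authors scaled by gene length and library, and effective lengths and posterior SDs, which served only as an offset and a check. The strand setting of counting is not given in the sources used here. Of 18 records, 8 repeat another and were used once. Symbols and positions came from GENCODE release 44 and promoters from RefSeq.

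Expected counts were rounded and tested with edgeR 4.0.16 (TMM, filterByExpr, quasi-likelihood F-test, Benjamini-Hochberg over all genes). The 6 knockdown libraries were fitted together, the 4 drug libraries apart, and the difference of effects in all 10. A gene was called at adjusted p under 0.01 and more than 2-fold. CPM values are TMM-scaled and serve comparisons within a gene, and TPM values serve comparisons between genes. Alternatives included DESeq2 1.42.0, other filters and offsets (splines of GC content and length), the replicate block, summed paralogs and leaving out each library. In simulated data, changes were put only into genes averaging 50 counts or more, with no shift shared by replicate number. The pipeline recovered 99% of 4-fold changes for shE2F1 (15373 genes fitted) and 98% for GSK126 (14632 genes fitted). These rates do not cover members with lower counts. Sharing was the percentage of a gene's 50-base stretches that occur in another gene. Every member at 1 TPM or more was named, with up to 3 called genes per direction of each partner list. The members and lists were chosen with earlier results of these data known.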

Additional observations from a re-analysis of the deposited data

How the results depend on the processing

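With shE2F1, the count of 9 called members stayed between 6 and 10 under every alternative that kept the thresholds, and was 13 at adjusted p under 0.05 with no fold requirement, which 44.7% of all genes passed. KRT9, KRT16 and KRT33B, which the filter admitted through shE2F1, are in the counts of 9 and 13. So is KRTAP2-3, which was chosen with the same control libraries. KRT9 was not called when any 1 library was left out or with the effective length offset. The other counts varied more. For GSK126, 1 member (KRT34) was called in DESeq2, with the replicate block and with the GC content and length offset plus the block, and 0 to 2 when 1 library was left out, the second being KRTAP2-3. For shEZH2, as a description, 11 members lay at adjusted p under 0.05, as did 55.6% of all genes. For the hairpin effect minus the GSK126 effect, 3 members passed under the GC content and length offset with and without the block, and 8 at adjusted p under 0.05, where 36.6% of all genes stood. Partner genes called were 33 of 53 with shE2F1 at adjusted p under 0.05 (all genes 44.7%), and with GSK126 1 (FLG) in DESeq2, with the block and with the offset plus the block, and 0 to 1 when a library was left out. The cause of these shifts was not tested.

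Signs turned only for members that were not called. With shE2F1, KRT18 was 0.02 when only genes averaging 50 counts or more were kept, and −0.08 to 0.02 when 1 library was left out. With GSK126, KRT16 was 0.72 when paralogs were summed, since that sum holds KRT17. Leaving out 1 library gave with GSK126 −0.06 to 0.12 for KRT8, −0.14 to 1.28 for KRTAP2-3, −0.09 to 0.04 for KRT19, −0.18 to 0.27 for KRT10, −0.05 to 0.19 for KRT15, −0.08 to 0.19 for KRT81 and −0.56 to 0.08 for KRT16. For shEZH2 against shE2F1, the effective length offset gave 0.13 for KRT15 and 0.01 for KRT81, and the summed paralogs gave 0.06 for KRT81. The GC content and length offset gave 0.04 for KRT8, 0.02 for KRT15, 0.26 for KRT34 and 0.52 for KRT81, and with the block 0.04, 0.01, 0.26 and 0.50. Leaving out 1 library gave −0.32 to 0.09 for KRT15, −0.20 to 0.05 for KRT34, −1.23 to 0.58 for KRT81 and −0.82 to 0.80 for KRT86.

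Replicate differences correlated at r = 0.663 over 11919 genes between DMSO and GSK126, and at 0.0404 to 0.206 among the knockdown groups, and the labels name no shared culture or day. The replicate block called 68 genes with GSK126 against 0 without it, left KRTAP2-3 at 0.66 (under 2-fold, adjusted p = 0.000281 in edgeR), and called 9 members with shE2F1 with or without it. A fit of only the libraries compared is the GSK126 fit itself. With 2 libraries per group and counts under 50 for KRT9, KRT39, KRTAP2-4 and all members under 1 TPM, small changes could not be detected.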

Other observations

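The annotation holds 174 non-coding or pseudogene relatives of the family, 167 of them pseudogenes. Counts were found for 68 of them and 6 reached 1 TPM in a library. The most abundant was KRT10-AS1, a long non-coding RNA on the strand opposite to KRT10, with 204 to 464 counts per library and up to 42.2 TPM. Since the strand setting of counting is not known, its reads and those of KRT10 may not be fully separate. The other relatives at 1 TPM were the processed pseudogenes KRT8P3, KRT8P12, KRT8P36, KRT8P33 and KRT18P52, with at most 7.86 TPM. KRT8P12 had 56 and 33 counts with control shRNA, 13 and 12 counts with shEZH2 and 55 and 56 counts with shE2F1. KRT18P52 had 6 and 4 counts with shEZH2 and at most 1 in any other library.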
